A study of Mus musculus with 24 samples.

Results

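Gm15446, Zfp932, Zfp997, Zfp998 and Zfp999 are 5 mouse genes for Cys2-His2 zinc finger proteins that lie in 2 short stretches of the genome with a reduced copy number in transgenic mice of a neuroblastoma study. Gm15446 and Zfp932 are neighbours on Chr 5, and Zfp997, Zfp999 and Zfp998 follow each other on Chr 13. The 5 genes were selected on the copy number values described here, out of 20621 protein-coding autosomal genes, because they lay in short losses shared by most samples. The number of samples with a loss is therefore a description of the members and was not tested. In the mouse genome GRCm39, Gm15446 (ENSMUSG00000090015) occupies chr5:110071266-110093477 and Zfp932 (ENSMUSG00000066613) chr5:110144035-110160002, both on the plus strand. On Chr 13, Zfp997 (ENSMUSG00000095909) occupies chr13:66261294-66271953 on the plus strand. Zfp999 (ENSMUSG00000091347) occupies chr13:66375133-66375387 and Zfp998 (ENSMUSG00000074832) chr13:66566173-66589226, both on the minus strand.

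Cys2-His2 zinc fingers are small protein units folded around a zinc ion that is held by a pair of cysteines and a pair of histidines, and each unit touches a few bases of DNA. Many mouse zinc finger proteins also carry a KRAB domain, which recruits the corepressor TRIM28 (KAP1) and through it the histone methyltransferase SETDB1, so that chromatin at bound sites, often transposable elements, is silenced. Genes of this family arose by repeated tandem duplication, lie in clusters, and are known to differ in number between individuals and strains.

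Shallow whole genome sequencing (sWGS) was used to measure copy number in adrenal glands and tumours. The mice carry transgenes at the Rosa26 locus that are silent until a Cre recombinase driven by Dbh, a gene of sympathetic neurons and adrenal chromaffin cells, removes a stop cassette. Values were available for 5 adrenal glands labelled MYCN fl/wt, CRE + (AGM), 8 IGF2BP1 tumours, CRE + (TI), and 8 tumours labelled IMP1/MYCN, CRE + (TIM), where IMP1 is another name of IGF2BP1. They are relative to 3 adrenal glands of CRE - animals (AG), which have no values of their own here. The transgene was heterozygous (IGF2BP1 +/-) in TI replicate 1 and homozygous (IGF2BP1 +/+) in the remaining 7. Adrenal tumours, by their source name, were TI replicate 6 as well as TIM replicates 1 and 5. The labels give no age per sample. The study states that MYCN mice were culled later than mice with IGF2BP1 tumours, and IGF2BP1/MYCN mice earlier, so age and group cannot be told apart. Mice had been backcrossed to C57Bl6/N before they were crossbred, and the MYCN mice came from another source than the others. The labels do not name the mouse of each sample, and TIM tumours may share a mouse. DNA copy number does not show expression, so the labelled tissue was not checked against marker genes.

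Sample titles begin with either SH or AGH, and the labels do not explain these prefixes. All 5 AGM glands, all 8 TIM tumours and TI replicate 8 have AGH titles, whereas TI replicates 1 to 7 and the 3 AG reference glands have SH titles. Title prefix and group therefore cannot be told apart, apart from the single TI tumour with an AGH title. The study describes its coverage as low for all samples, and the depth behind each segment is not analysed here. The table holds between 48 and 123 autosomal segments per AGH sample and between 55 and 118 per SH sample. Segments of at most 100 kb numbered 2 to 7 in AGH samples and 2 to 9 in SH samples, counting the Chr 5 loss itself where it was present.

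The members are built alike, and 1 finger unit of each is shown because it carries both the shared frame and the differences. A unit codes for 1 zinc finger and the linker to the next one and spans 84 bases, given 5′ to 3′ on the coding strand of GRCm39, with the codons of the zinc-binding cysteines and histidines in capitals. The unit is the first one of each canonical GENCODE M39 transcript that is followed by a conserved linker and another finger. It is finger 3 of Gm15446 (chr5:110090230-110090313), finger 2 of Zfp932 (chr5:110156703-110156786), and finger 1 of Zfp997 (chr13:66269064-66269147), Zfp999 (chr13:66375289-66375372) and Zfp998 (chr13:66580170-66580253).
Gm15446: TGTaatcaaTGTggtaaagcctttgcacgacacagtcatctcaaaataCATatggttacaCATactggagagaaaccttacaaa
Zfp932: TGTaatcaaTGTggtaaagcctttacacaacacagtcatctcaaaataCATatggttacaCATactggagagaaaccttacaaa
Zfp997: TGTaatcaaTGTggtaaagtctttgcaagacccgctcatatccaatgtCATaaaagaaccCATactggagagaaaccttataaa
Zfp999: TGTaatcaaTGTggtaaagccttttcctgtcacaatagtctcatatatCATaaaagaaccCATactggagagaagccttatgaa
Zfp998: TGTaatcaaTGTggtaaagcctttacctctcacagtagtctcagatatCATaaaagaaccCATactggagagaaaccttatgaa

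The units of Gm15446 and Zfp932 differed at 2 of 84 bases. Those of Zfp999 and Zfp998 differed at 5 of 84 bases, and Zfp997 differed from either at 16 of 84. Between a Chr 5 and a Chr 13 member, 17 to 21 of 84 bases differed.

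Each of the 4 long members has 4 exons with the same middle pair, an exon of 127 bases and an exon of 61 bases, and in this family the first of these codes for the KRAB A box. All fingers lie in the last exon. Gm15446 codes for 553 residues with 16 fingers, Zfp932 for 526 residues with 15 fingers, Zfp997 for 604 residues with 19 fingers and Zfp998 for 464 residues with 14 fingers. Zfp999 differs from the others in that its model is a single exon of 255 bases without a start codon, which codes for 85 residues with 3 fingers. The linker of the consensus type followed 11 fingers in Gm15446, 11 in Zfp932, 17 in Zfp997, 13 in Zfp998 and 2 in Zfp999.

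The protein sequences fell into 2 groups that followed the chromosomes. Gm15446 and Zfp932 were identical at 513 of 525 aligned residues (97.7%) and at 98.6% of aligned coding bases. On Chr 13, Zfp997 and Zfp998 were identical at 88.1% of 464 aligned residues, and Zfp999 matched Zfp997 at 91.8% and Zfp998 at 88.2% of its 85 residues. Across the chromosomes, protein identity was between 66.8% and 74.1%.

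**Figure D1:**
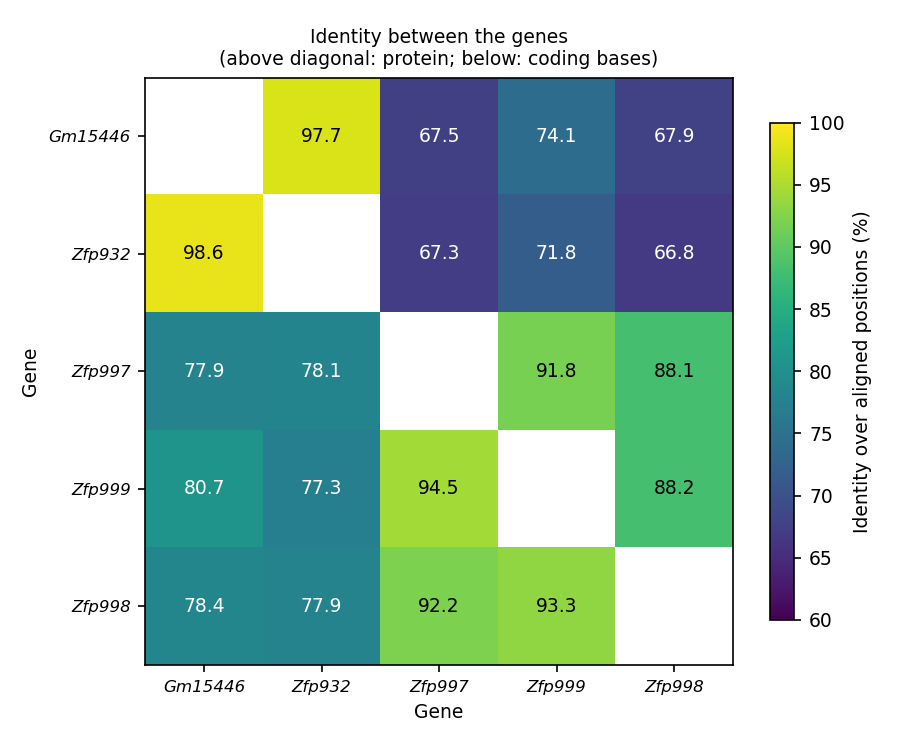
Identity between the 5 genes over aligned positions in percent, for proteins above the diagonal and for coding bases below it. The Chr 5 pair reached 97.7% in protein, the Chr 13 genes 88.1% to 91.8%, and pairs from different chromosomes 66.8% to 74.1%.

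The residues of a finger that contact DNA lie at a few positions of its helix. Over helix positions -1, 2, 3 and 6, the 67 fingers of the members held 39 distinct sets of 4 residues. In Gm15446, 13 of 16 fingers (81.2%) carried a set also present in Zfp932, and in Zfp932, 12 of 15 (80.0%) carried a set of Gm15446. In Zfp997, 8 of 19 fingers (42.1%) carried a set also present in Zfp998, and in Zfp998, 3 of 14 (21.4%) carried a set of Zfp997. Fingers of a gene that carry the same set are each counted. Of the 39 sets, only 1 was present on both chromosomes, in Gm15446 and Zfp997. All 3 fingers of Zfp999 carried a set found in Zfp998.

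On Chr 5, the copy number of Zfp932, taken from the segment median, took 3 separate levels. It was close to 0 copies in 14 samples, close to 1 copy in 2 samples and close to 2 copies in 5 samples. A log2 ratio was converted to a copy number as 2 times 2 to the power of the ratio, and a copy class is this number rounded, with a loss at class 0 or 1.

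Of all 20621 protein-coding autosomal genes, 0.0679% were at class 0 or 1 in all 5 AGM glands and 0.0145% were at class 0 in all 5. In TIM, 0.063% were at class 0 or 1 in all 8 tumours, and the same share, 0.063%, held for all 14 AGH samples. In TI, where larger losses occur, 1.64% of genes were lost in at least 2 tumours, as the Chr 13 members were, and 0.097% in at least 3 tumours, as the Chr 5 members were. A loss in at least 1 sample of any group was found for 9.39% of genes. The members were selected for this pattern, so nothing is read from these shares.

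In AGM, the log2 ratio of Zfp932 was -5.32 in all 5 adrenal glands, which is 0.050 copies and the lower limit of the values in the table. In TIM, it was -5.32 in 7 tumours and -5.28 in TIM replicate 9. Both groups thus lay wholly at class 0. In TI, replicate 8 alone was at -5.32. TI replicate 1 was at -0.99, or 1.01 copies, and TI replicate 3 at -0.93, or 1.05 copies. The other TI tumours were at 2.01 (replicate 2), 2.01 (replicate 4), 1.95 (replicate 5), 1.99 (replicate 6) and 1.88 copies (replicate 7). The mean was 0.050 ± 1.25e-05 copies in AGM (SD, n = 5), 0.0502 ± 0.000497 in TIM (SD, n = 8) and 1.49 ± 0.722 in TI (SD, n = 8), and the TI mean stands for none of its 8 tumours.

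Gm15446, the neighbour of Zfp932, had the same class in 21 of 21 samples. Its gene value, computed from log2 ratios, was 0.214 ± 7.26e-05 copies in AGM (SD, n = 5), 0.214 ± 0.00144 in TIM (SD, n = 8) and 1.59 ± 0.626 in TI (SD, n = 8). TI replicate 1 had 1.32 copies, TI replicate 3 had 1.36 and TI replicate 8 had 0.214. These values are higher than those of Zfp932 because the first 8735 bases of Gm15446 lie before the lost segment, at about 2 copies, and the gene value is a mean of log2 ratios weighted by length. Only 60.7% of the gene body lay in the lost segment. A mean of log2 ratios is pulled towards the lower limit, so 0.214 is not the average number of copies over the gene body. Class 0 of Gm15446 holds for this value and for its lost part. The value nearest below the limit between class 1 and class 2 at 1.5 copies was that of Gm15446 in TI replicate 3, and the nearest above was 1.88 copies in TI replicate 7.

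**Figure D2:**
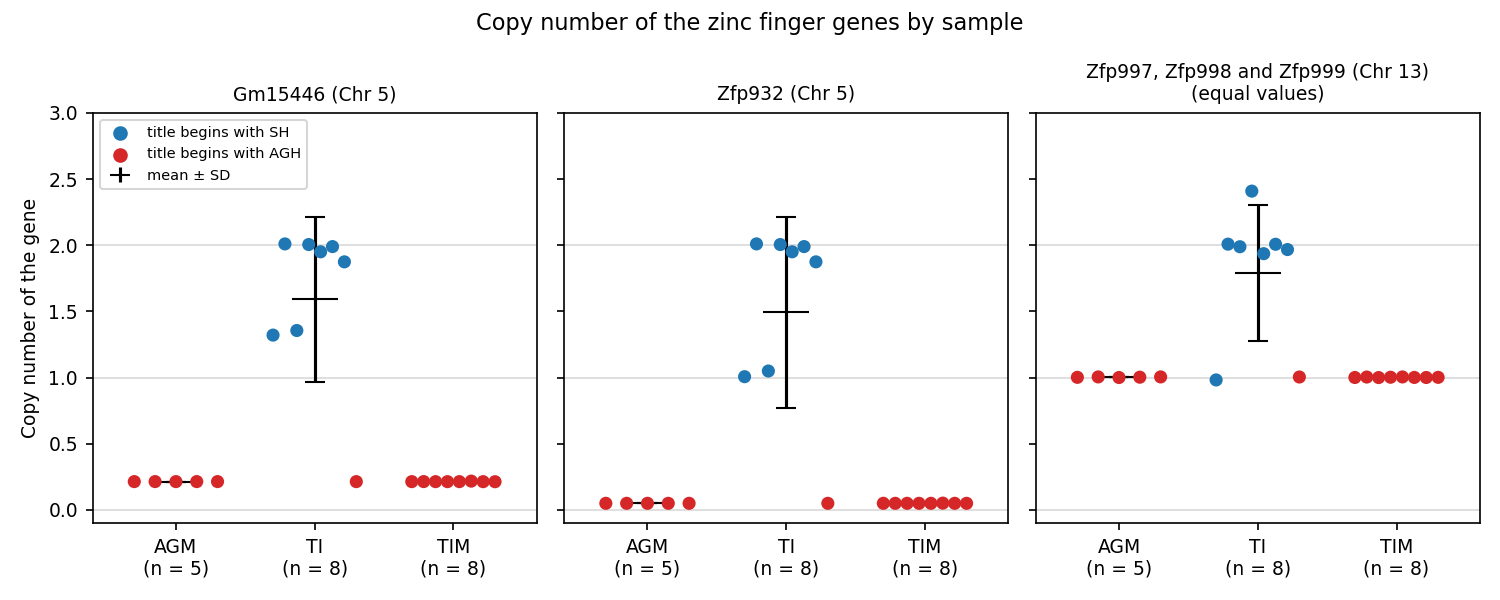
Copy number of the genes (vertical axis) in each sample of AGM (n = 5), TI (n = 8) and TIM (n = 8), with blue points for SH titles, red points for AGH titles and black bars for the mean ± SD. All red points lie near 0 copies on Chr 5 and near 1 copy on Chr 13, whereas blue points lie between 0.983 and 2.41 copies.

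The lost segment on Chr 5 had the same limits in almost all samples. It ran from 110080001 to 110160000 (80 kb) in 15 of 16 samples with a loss, and in TI replicate 3 it ended at 110180000 (100 kb). Both neighbouring segments were at 2 copies, with log2 ratios of at most 0.02 before and at most 0.05 after the loss. Starts of all segments fall on a grid of 20 kb, so the limits are known only to that length. The segment covered exons 2 to 4 of Gm15446 with all of its 16 fingers. Exon 1 of Gm15446, with the start site and the first 3 of 1659 coding bases, lay outside it in 16 of 16 samples. Zfp932 lay in it with all 1578 coding bases, and only the last 2 bases of the gene lay beyond its usual end.

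The starts of both genes are shown because 1 lay outside and 1 inside the loss. The 250 bases before the start of the canonical transcript are given 5′ to 3′ on the plus strand of GRCm39, at chr5:110071016-110071265 for Gm15446 and chr5:110143785-110144034 for Zfp932, with matches to the motif TATAAA in capitals.
Gm15446: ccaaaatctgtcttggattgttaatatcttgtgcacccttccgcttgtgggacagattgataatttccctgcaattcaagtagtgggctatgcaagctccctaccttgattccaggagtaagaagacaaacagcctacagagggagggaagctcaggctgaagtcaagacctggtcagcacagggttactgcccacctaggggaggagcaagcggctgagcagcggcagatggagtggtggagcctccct
Zfp932: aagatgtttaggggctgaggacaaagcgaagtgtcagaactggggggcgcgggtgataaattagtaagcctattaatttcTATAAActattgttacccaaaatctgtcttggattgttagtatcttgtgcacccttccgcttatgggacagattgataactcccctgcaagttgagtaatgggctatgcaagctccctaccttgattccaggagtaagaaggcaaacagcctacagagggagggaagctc

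The window of Gm15446 was outside the loss in 16 of 16 samples, and that of Zfp932 was inside in 16 of 16. Aligned to each other, the windows were identical at 145 of 154 aligned bases (94.2%). The motifs searched, on both strands, were TATAAA for the TATA box, CCAAT for the CCAAT box and GGGCGG for the GC box. Zfp932 held 1 match to the TATA box motif, and Gm15446 held no match to any of the 3. The match in Zfp932 lies far from the transcript start and ahead of the aligned stretch. The Gm15446 window does not cover the matching bases, so this is not a difference between aligned sequences. Of all 20621 windows of this length, 12.02% held the TATA box motif, 36.1% the CCAAT box motif and 36.8% the GC box motif. The windows held 3 CpG in Gm15446 and 4 in Zfp932, below the median of 8 over all windows. On Chr 13, the windows of Zfp997 and Zfp998 each held 1 match to the CCAAT box motif and 3 CpG, were identical at 91.9% of aligned bases, and lay inside the loss in 15 of 15 samples.

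The mean of the Chr 5 segment differed from its median. Where the median was near -5.32, the mean lay between -4.24 and -4.20. An 80 kb segment holds 4 grid windows of 20 kb, and if 3 of them equal the median, the remaining window has a log2 ratio between -1.04 and -0.83 in the 14 AGH samples, close to 1 copy. Which of the 4 windows this is cannot be told from the table. The lost part of Gm15446 lies in the first of these windows and Zfp932, apart from its last 2 bases, in the last, so either gene may be the one near 1 copy. The value of 0 copies is that of the segment, not of each gene. In TI replicate 1 mean and median were both -0.99.

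On Chr 13, the 3 members shared the same segment in 21 of 21 samples and therefore have equal values. Zfp997, Zfp999 and Zfp998 were at 1.00 ± 0.00197 copies in AGM (SD, n = 5), with log2 ratios from -1.0 to -0.99. They were at 1.00 ± 0.00170 copies in TIM (SD, n = 8), again from -1.0 to -0.99. AGM and TIM lay wholly at class 1 by the segment median and overlapped with each other. By the segment mean, AGM replicate 3 was at 0.450 copies and TI replicate 1 at 0.422 copies, which rounds to class 0, and the other samples with a loss lay between 0.540 and 0.729 copies. These are means of log2 ratios, which windows near the lower limit pull down, and not average numbers of copies. In AGM replicate 3 and TI replicate 1 the segment over the genes was also shortest, at 640 and 620 kb. In TI, the mean was 1.79 ± 0.513 copies (SD, n = 8). TI replicate 1 was at 0.983 copies and TI replicate 8 at 1.00. TI replicates 2, 3, 5, 6 and 7 lay between 1.94 and 2.01 copies. TI replicate 4 had the highest value at this locus, with 2.41 copies (log2 ratio 0.27) over a segment of 1260 kb, which lies below the limit of class 3 and below the gain threshold of 0.3 named by the study.

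The limits of the Chr 13 loss varied more than those on Chr 5. The loss began between 65800001 and 65900001, at 65820001 in 8 of 15 samples, and ended between 66600000 and 66640000, at 66600000 in 10 of 15. Its length was 700 to 820 kb. In AGM replicate 3 and TI replicate 1 it was called as 2 adjoining segments. The coding bases of all 3 members lay inside it in 15 of 15 samples. The usual extent overlaps 47 annotated genes, of which 3 are protein-coding, and these are the 3 members. A further 17 are long non-coding RNAs and 18 are processed pseudogenes.

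A gain adjoined the Chr 13 loss in part of the samples. In 5 of 5 AGM glands and 6 of 8 TIM tumours, a segment of 100 to 180 kb just before the loss was above the gain threshold. It was at 3.07 to 3.71 copies in AGM and at 3.003 to 3.23 copies in TIM. TIM replicates 11 and 12 and TI replicates 1 and 8 had the loss without this gain. After the loss, all 15 samples returned to about 2 copies.

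**Figure D3:**
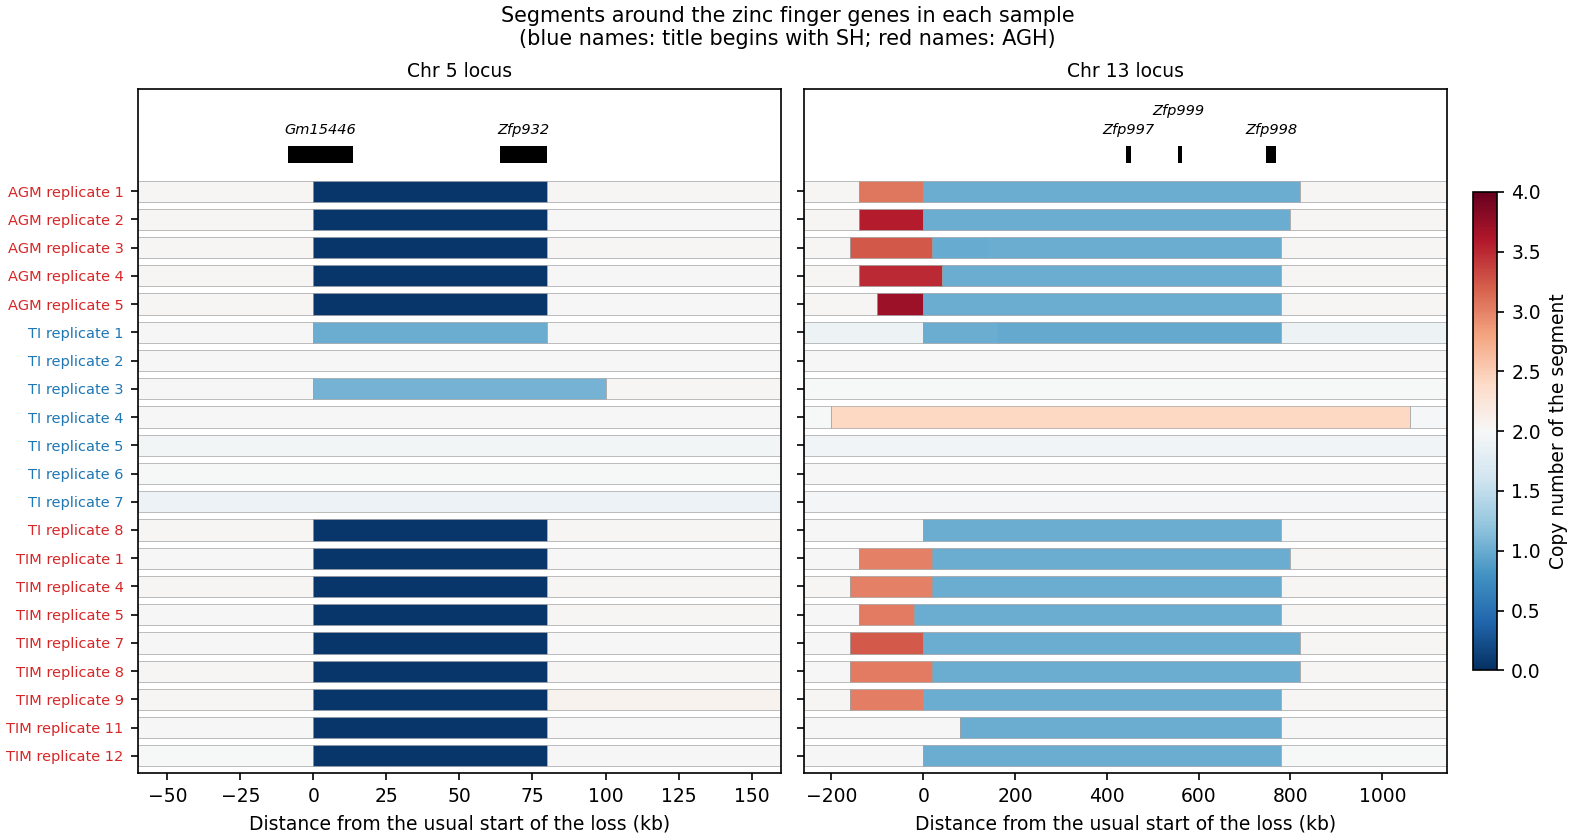
Segments around the genes in each of the 21 samples (rows), drawn by distance in kb from the usual start of the loss and coloured by copy number, with the genes as black bars. The 80 kb loss on Chr 5 has the same start in 16 samples, and the Chr 13 loss is preceded by a gain in 11 samples.

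The median at Chr 13 does not show the lower values in part of the stretch. In the 15 samples with a loss, the median of the segment was -1.03 to -0.99, whereas its mean was -2.24 to -1.46. If the remaining windows equal the median, between 4.35 and 8.79 windows at the lower limit of the table would give these means, out of 31 to 41 windows per segment. Part of the stretch was hence below 1 copy, and the table does not tell whether the windows of Zfp997, Zfp998 or Zfp999 belong to it. The value of 1 copy is that of the segment, not of each gene.

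**Figure D4:**
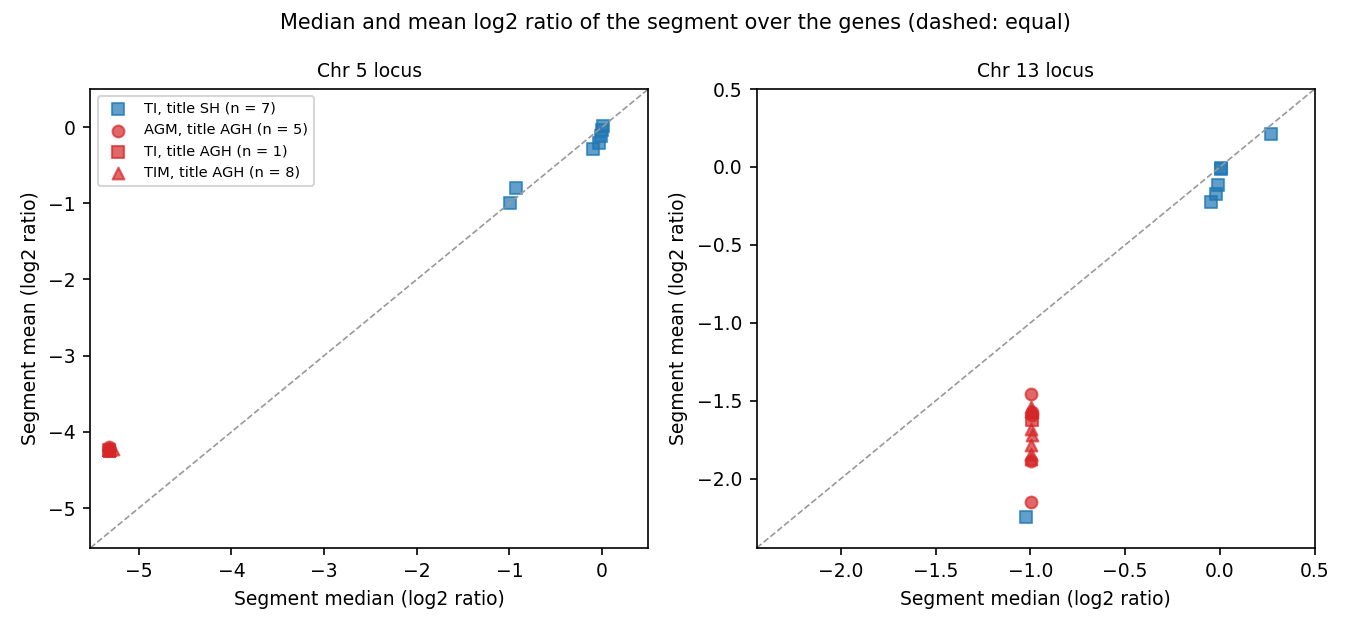
Median (horizontal axis) and mean (vertical axis) log2 ratio of the segment over the genes in each sample, with shape for the group, blue for SH titles, red for AGH titles and a dashed line where both are equal. Samples with a median near 0 copies on Chr 5 have means above the median, and samples with 1 copy on Chr 13 have means from -2.24 to -1.46 at a median near -1.0.

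Read together, the loci gave 4 combinations. Class 0 on Chr 5 with class 1 on Chr 13 was found in 14 samples, which are 5 of 5 AGM, 8 of 8 TIM and 1 of 8 TI. TI replicate 1 had class 1 at both loci. TI replicate 3 had class 1 on Chr 5 and class 2 on Chr 13. The remaining 5 TI tumours had class 2 at both. Being lost or not was equal at both loci in 20 of 21 samples, with TI replicate 3 as the exception. By title prefix, 14 of 14 AGH samples had classes 0 and 1, whereas of the 7 SH samples 2 had a loss on Chr 5, 1 had a loss on Chr 13 and none had class 0 on Chr 5. Among the TI tumours, the single AGH sample was also the single one at class 0 on Chr 5. The AG reference glands have SH titles. The part of the title prefix, of the MYCN transgene and of the reference in these states was not tested.

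Other zinc finger genes were counted beside all genes. Of 409 other genes whose symbol begins with Zfp, 1 (0.244%) was lost in at least 1 AGM gland, against 0.228% of all genes. In TIM, 0 of 409 were lost in any tumour, against 0.339% of all genes. In TI, 35 of 409 (8.56%) were lost in at least 1 tumour, against 9.24% of all genes. Gains in at least 1 sample were found for 1 of 409 in AGM (0.244%, against 0.0485% of all genes), 91 in TI (22.2%, against 24%) and 39 in TIM (9.54%, against 13.5%).

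The partners of KRAB zinc finger proteins were at 2 copies in AGM. The list holds Trim28, Setdb1, Atf7ip, Cbx1, Cbx3, Cbx5, Chd4, Dnmt1, Uhrf1 and Morc3. Among them are genes for the corepressor, the methyltransferase and its partner, heterochromatin proteins and DNA methylation factors. In AGM, 0 of 10 were lost and 0 of 10 were gained in any gland. In TIM, 0 of 10 were lost and 4 (40%, against 13.5% of all genes) were gained in at least 1 tumour. In TI, 3 (30%, against 9.24%) were lost and 5 (50%, against 24%) were gained in at least 1 tumour. The list is short, and Cbx3, Chd4 and Atf7ip lie on the same chromosome and can share a segment. Cbx1 was gained in 7 of 8 TI tumours, with up to 3.90 copies, and in 1 of 8 TIM tumours. Chd4 and Atf7ip ranged from 1.01 to 2.84 copies in TI and were gained in 4 of 8 TIM tumours. Trim28 stayed between 1.94 and 2.02 copies and Setdb1 between 1.94 and 2.17 copies over the 21 samples.

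Of 36 other protein-coding genes within 1 Mb of the Chr 5 members, 1 (2.78%) was lost, against 0.228% of all genes in at least 1 AGM gland, 0.339% in TIM and 9.24% in TI. It was lost in 5 of 5 AGM glands, 8 of 8 TIM tumours and 3 of 8 TI tumours. This gene is ENSMUSG00000121597 at chr5:110071544-110157884, a model without a symbol that overlaps both Gm15446 and Zfp932. Of 27 other protein-coding genes within 1 Mb of the Chr 13 members, 0 were lost in any group. Zfp1000, a short zinc finger gene model at chr13:65660492-65660662, was gained in 1 AGM gland and 4 TIM tumours, with up to 3.24 copies in AGM, as part of the gain before the loss.

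Both stretches are rich in sequence that occurs more than once. Of the 31-base words in the Chr 5 loss, 63.6% were found more than once in the genome, repeats within the loss itself included, against 40.5% in the 1 Mb before and 11.5% in the 1 Mb after. In the usual extent of the Chr 13 loss the share was 90.9%, against 44.5% in the 1 Mb before and 49.4% in the 1 Mb after. In windows of 20 kb next to the Chr 13 loss, the median share was 89.0% over the 300 kb before and 89.1% over the 300 kb after, against 91.1% inside, so the repeated stretch extended beyond the loss. Over the exons, it was 67.6% in Gm15446, 67.3% in Zfp932, 81.5% in Zfp998, 92.9% in Zfp999 and 100% in Zfp997. Windows of 20 kb outside the losses reached 70.2% on Chr 5 and 94.3% on Chr 13, and windows inside the Chr 13 loss reached 99.0%. Reads that lie wholly in repeated sequence have no unique origin, and the part of this in the copy states was not tested.

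**Figure D5:**
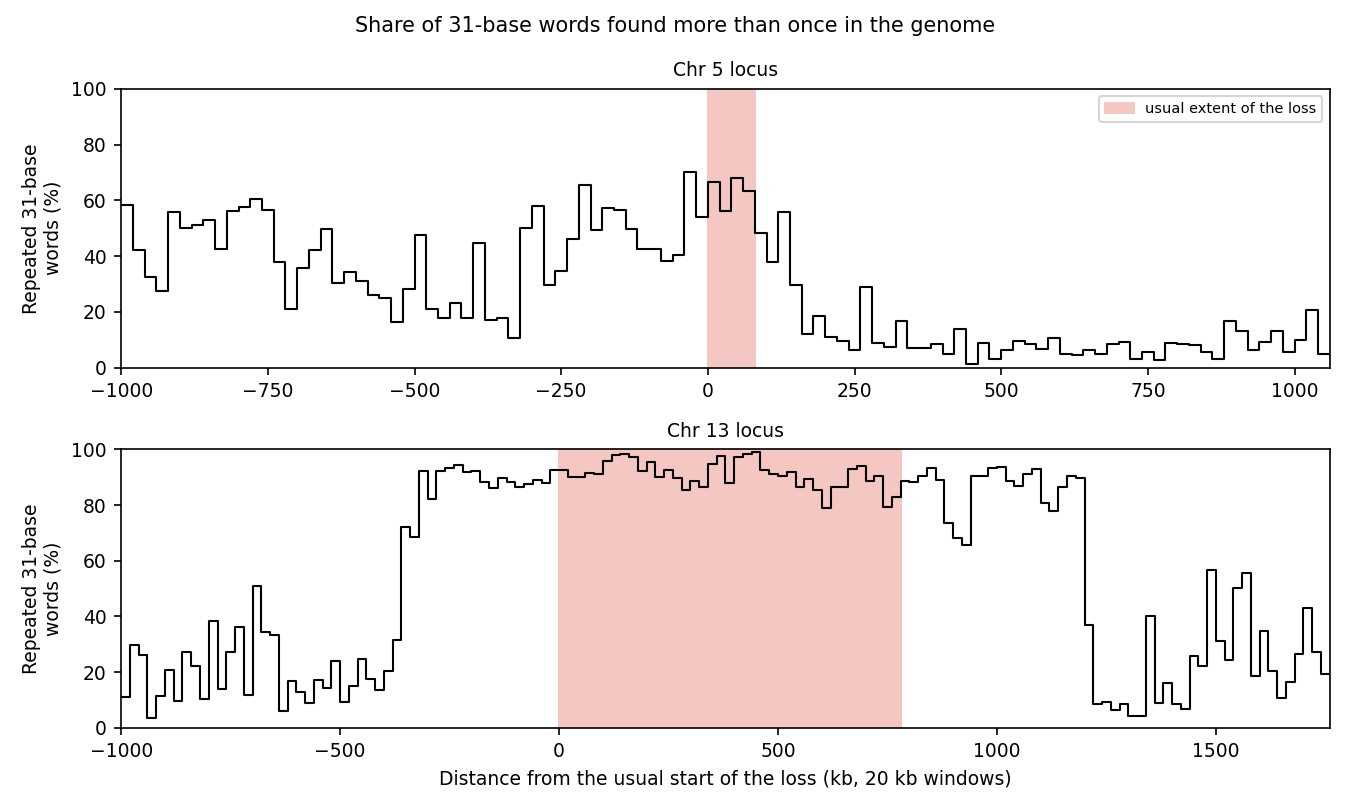
Share of 31-base words found more than once in the genome (vertical axis, percent) in 20 kb windows, by distance from the usual start of the loss, which is shaded. Shares inside the loss are 56.2% to 68.2% on Chr 5 and 79.1% to 99.0% on Chr 13.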

How the data were processed

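The members and gene lists were chosen with earlier results of these data known. Per the study's methods, sWGS reads were aligned with HISAT2 2.1.0 to mm39 and copy number was called with cn.MOPS, and the submitters' processing notes also name cutadapt 2.8 and SAMtools 1.10. These methods state an approximate coverage per sample, below 1-fold and common to all samples. Window length, the exact depth of each single sample and the handling of reads with several matches are not given in the sources used here. The deposited table holds 1485 segments of 21 samples, each with a median and a mean log2 ratio to the AG adrenal glands, and a copy number, which equalled 2 times 2 to the power of the median to within 0.05 in all 1485 segments. The lowest log2 ratio was -5.32, a ratio of 0.025. Lengths of all 19 autosomes equalled GRCm39. Gene models and sequences are from GENCODE M39 and GRCm39.

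The value of a gene is the mean of the segment medians weighted by overlap with the gene body. Classes are 0 (below 0.5 copies), 1 (below 1.5) and 2 (below 2.5). No test between groups was run. Genes named are the members, listed genes outside class 2 in at least 1 AGM gland, and up to 5 genes per locus with the most similar classes. The KRAB partner genes given with values were named after their values were seen. Fingers were found as C-X2-4-C-X12-H-X3-5-H in the translated canonical coding sequence. Proteins and coding sequences were aligned globally with Biopython 1.88, and 31-base words were counted on both strands of 21 chromosomes. The class assignment was checked on simulated segments. Computations used Python 3.11.15, numpy 2.4.6, pandas 2.3.3, pysam 0.24.0 and matplotlib 3.10.9. Alternatives were log2 thresholds of -0.4 and -0.2, the mean column, other ways to assign a segment to a gene, leaving out each AGM replicate, and subsets of tumours by label.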

Additional observations from a re-analysis of the deposited data

Results flagged for a closer look

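Within a group, 3 samples stood apart at the Chr 5 genes, as their distance to the nearest other sample was large for the range of the group. Gm15446 and Zfp932 take their low values from the same segment and are not independent, and the genes were selected on these values, so the number of such samples is not set against chance. In TI, replicate 8 had a log2 ratio of -3.22 for Gm15446 and -5.32 for Zfp932, while the other TI tumours lay between -0.60 and 0.01 for Gm15446 and between -0.99 and 0.01 for Zfp932. It is the only TI tumour with an AGH title. In TIM, replicate 9 had -3.20 for Gm15446 and -5.28 for Zfp932, against -5.32 for Zfp932 in the others. In AGM, replicate 2 had -5.32 for Zfp932, which is equal to the other glands to 2 decimals. Both of these samples differ from their group by under 0.01 copies, close to the lower limit of the table.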

How the results depend on the processing

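No paired analysis was possible because the labels tie no samples into pairs and no test between groups was run. The number of samples with a loss was recomputed under 54 alternatives and kept within 1.5 times its value in 52. The exceptions concern the Chr 13 locus in TI, with 1 of 7 tumours instead of 2 of 8 both for tumours labelled IGF2BP1 +/+ and for SH titles. These subsets leave out 1 tumour each, TI replicate 1 or TI replicate 8. Without any single AGM replicate the loss was present in 4 of 4 glands. Mean copy numbers moved by more than 1 SD in 19 of 105 alternatives, all in AGM or TIM, where the SD is small. With the mean column, Gm15446 was at 0.341 copies in AGM and 0.337 in TIM, Zfp932 at 0.1065 and 0.106, and Zfp997, Zfp998 and Zfp999 at 0.612 and 0.619, which moved AGM replicate 3 and TI replicate 1 from class 1 to class 0 on Chr 13. Values from the mean column are converted means of log2 ratios, not average numbers of copies. Taking the segment with the largest overlap, that at the gene midpoint or the lowest one gave Gm15446 0.050 copies in AGM and 0.0502 in TIM and Zfp932 0.050 in AGM. The number of samples with a loss at the Chr 5 locus was unchanged with the mean column and with each way of choosing a segment. The low coverage and the 20 kb grid limit which part of a gene can be placed in a state.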

Other observations

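Outside both stretches, the protein-coding genes most like the members in their copy classes lie on Chr 14. Plac9, Tmem254, Cphx1 and Duxbl1 shared the class of the Chr 13 members in 17 of 21 samples, and Gm8126 in 16 of 21. Each was lost in 5 of 5 AGM glands and 8 of 8 TIM tumours. In TI, Plac9, Tmem254, Cphx1 and Duxbl1 were lost in 4 of 8 tumours and Gm8126 in 5 of 8. Cphx1 and Duxbl1 code for homeobox proteins. Class 0 of Gm15446 and Zfp932, whose gene values rest largely on the median of their shared segment, was shared less widely. The most similar gene, 1700001F09Rik on Chr 14, shared their class in 8 of 21 samples, although it was lost in 5 of 5 AGM glands, 8 of 8 TIM tumours and 5 of 8 TI tumours. The next were Setd4, Cbr1, Cbr1b and Cbr3 on Chr 16, with 6 of 21. Each of these was lost in 0 of 5 AGM glands, 1 of 8 TI tumours and 1 of 8 TIM tumours. The likeness counts equal classes over samples that share a reference and, in part, a title prefix, and was not tested.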
